A study of Prunus persica with 24 samples.

Results

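The step from day 2 to day 3 of storage at 25 °C was examined in the flesh of harvested peach (Prunus persica). It rests on 4 of the 24 libraries of the series, 2 from day 3 and 2 from day 2 at 25 °C. Each pair of libraries was deposited as 1 value per gene, so every difference between the days is a difference of 2 values, with no spread between replicates and no test. The other libraries are from days 1, 5, 6 and 7 at 25 °C and from days 1, 2, 3, 5, 6 and 7 at 35 °C, the high temperature of the study, and they serve here to follow the same genes. All fruit had first been held at 5 °C for 2 days and then divided at random between the storage temperatures. The labels name neither cultivar, tree nor the number of fruit behind a library.

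Peach is a climacteric fruit: after harvest it makes a burst of the gaseous hormone ethylene, and its flesh softens as enzymes take the cell walls apart, loses acidity and forms aroma and colour compounds. Ripening and the senescence that follows run through broad changes in messenger RNA, in which programmes of the growing fruit are shut down and genes of softening and flavour are switched on. Storage warmth sets the pace of these changes, and heat can disturb them.

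The measure was FPKM, fragments per kilobase of transcript relative to the mapped fragments, summed over the rows of a gene and brought to a common scale across the 12 columns (rescaled FPKM). A gene was kept if 2 or more columns held at least 1 FPKM, which left 15420 of 26873 identifiers. Differences are of log2(FPKM + 1), a scale that understates the change of genes with low values. A gene is said to have fallen or risen when this value was lower or higher by 1 or more, that is 2-fold, and the words carry no test. The tables pair no gene names with the identifiers, and the RefSeq gene table used for names matched 0 of them, so genes are described by their levels, their courses and their identifiers. The flesh label could therefore not be checked against markers of flesh, skin or vascular tissue. Read depth is unknown. Summed FPKM was 829662 on day 3 and 882184 on day 2, within a range of 651850 to 882184 over all columns.

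Between day 2 and day 3 at 25 °C many more genes fell than rose. Of the 15420 genes, 921 were at least 2-fold lower on day 3 (5.97% of genes) and 222 at least 2-fold higher (1.44%), so that falls made up 80.6% of the genes past 2-fold. The imbalance was larger among large changes. At 1.5-fold or more, 2187 genes were lower and 1254 higher. At 3-fold the numbers were 327 and 25, at 4-fold 166 and 4, and at 8-fold 36 and 1. The median gene lay close to 0, at -0.01 on the log2 scale, and 51.0% of genes lay below 0. On this scale the imbalance was in the tail. The scaling itself brings the median gene close to 0, so these values cannot show whether the bulk of genes moved. In flesh as a whole, fewer cells of a type and less RNA per cell cannot be told apart. The split depended on the scaling: with FPKM as deposited the median gene moved to 0.15, and 671 genes fell against 418 that rose.

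**Figure D1:**
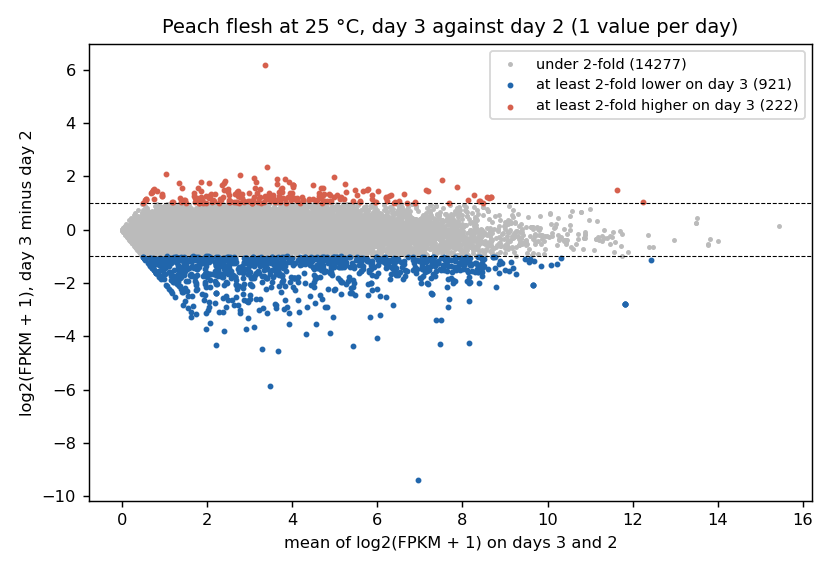
Each point is 1 of 15420 genes, with the difference of log2(FPKM + 1) between day 3 and day 2 at 25 °C against the mean of that value over both days. The 921 genes at least 2-fold lower on day 3 (blue) reach much further from the dashed 2-fold lines than the 222 at least 2-fold higher (red), and the slanted left edge is the limit set by the added 1 for genes with low values.

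The genes that fell changed by a median of -1.37 on the log2 scale, with quartiles of -1.78 and -1.15. Those that rose changed by a median of 1.20, with quartiles of 1.09 and 1.40. At the border, the smallest difference counted as a fall was -1.0002 and the nearest difference left out was -0.998. For rises these values were 1.0036 and 0.99975. Most members thus lay close to the 2-fold line, and 755 of the 921 falls were under 4-fold.

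The falls touched abundant messages as well as rare ones. Genes with a mean of 50 to 500 FPKM over the 12 columns fell in 219 of 2213 cases, or 9.90%, and those of 500 FPKM or more in 15 of 188, or 7.98%. Genes of 5 to 50 FPKM fell in 398 of 7802 cases (5.10%) and those under 5 FPKM in 289 of 5217 (5.54%). Rises were rarer in each class, at 1.07% under 5 FPKM and 2.13% at 500 FPKM or more. The 921 fallen genes together held 5.69% of the summed FPKM of the column on day 3, against 15.7% on day 2. Part of this was 1 value repeated: 4 fallen identifiers were each listed at 9492 FPKM on day 2, the highest value among them, and were identical in every column. With identical values counted once, 897 fallen values held 5.00% of the column on day 3, against 12.3% on day 2. On day 3, 130 of the fallen genes had less than 10% of their day 2 FPKM left. The risen genes held 3.10% of the summed FPKM on day 3, against 1.06% on day 2. These shares use the same days as the choice of genes, which fixed their direction.

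The other steps between successive sampling days give a scale for this imbalance, which moved with the scaling. From day 1 to day 2, 951 genes fell and 697 rose. From day 3 to day 5, 259 fell (1.68%) and 320 rose. From day 5 to day 6, 808 fell and 542 rose, and from day 6 to day 7, 585 fell and 240 rose. At 35 °C the step from day 2 to day 3 held 511 falls and 371 rises. The step from day 2 to day 3 at 25 °C thus had 4.15 falls per rise, beside 0.809 to 2.44 in the other steps at 25 °C. With FPKM as deposited this order was lost: the step had 1.61 falls per rise, beside 1.37 to 1.88 in the other steps at 25 °C. With quantile normalization it had 2.54, beside 0.751 to 2.097. Steps that follow one another share a column, and no difference between them could be tested.

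**Figure D2:**
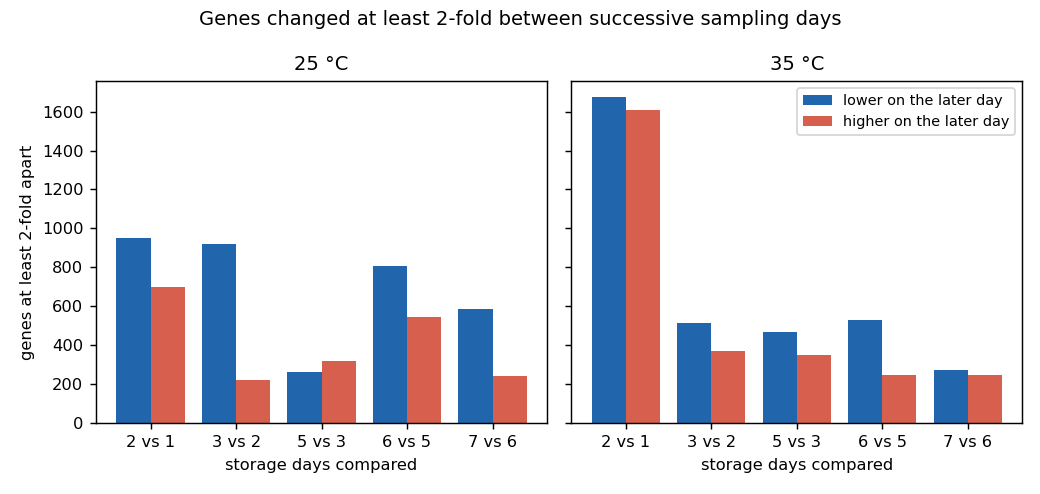
Bars give the number of genes at least 2-fold lower (blue) or higher (red) on the later of 2 successive sampling days, at 25 °C (left) and 35 °C (right). At 25 °C day 3 against day 2 shows 921 falls beside 222 rises, and day 5 against day 3 shows 259 beside 320.

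The fallen genes mostly stayed low. Their median level was 24.0 FPKM on day 1, 20.7 FPKM on day 2, 6.25 FPKM on day 3, 7.93 FPKM on day 5, 4.87 FPKM on day 6 and 6.20 FPKM on day 7 at 25 °C. The median over all 15420 genes lay between 8.55 and 9.59 FPKM on these days. The fallen genes were thus expressed above the typical gene on days 1 and 2 and below it from day 3 on. By the mean of days 5, 6 and 7, 716 of the 921 (77.7%) were still at least 2-fold below day 2, beside 7.91% of all genes, and 142 lay between this and a difference of 0.5 on the log2 scale. Only 51 were back within 0.5 of day 2 and 12 stood above it by more than that. On each of the 3 late days taken singly, 432 genes were at least 2-fold below day 2, and 80 were so on none. These counts share the day 2 column with the choice of genes, which picks values that were high on day 2 and low on day 3, and they are a description. Of these counts, only that of 716 has a share of all genes beside it, for the others were not computed over all genes.

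Comparison of the late days with day 1 uses no column from the step. Between day 1 and the average of the late days (5, 6 and 7), 483 of the 921 fallen genes (52.4%) were at least 2-fold lower, where 11.3% of all genes were. Only 20 (2.17%) were at least 2-fold higher, beside 3.59% of all genes. Their median change was -1.10, against -0.02 over all genes. The late difference was larger in genes with a larger fall on day 3. Among genes that fell 2-fold to 4-fold, 341 of 755 (45.2%) were at least 2-fold lower late than on day 1. Among those of 4-fold to 8-fold it was 108 of 130 (83.1%), and among those of 8-fold or more 34 of 36 (94.4%). The median changes in the 3 classes were -0.85, -2.65 and -3.79. The classes also differed in level, with day 2 medians of 19.9, 22.1 and 45.0 FPKM. One run of closely numbered identifiers, described below, gave 3 of the 755, 6 of the 130 and 8 of the 36.

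The low level was not steady from day to day. Fallen genes were a median of 0.37 higher on day 5 than on day 3, and 124 of them (13.5%) were at least 2-fold higher, beside 2.08% of all genes, a comparison that shares day 3 with the choice. From day 5 to day 6, with no shared column, 269 of the 921 (29.2%) fell at least 2-fold again and 22 (2.39%) rose, beside 5.24% and 3.51% of all genes. Their median change in that step was -0.61, against 0.01 over all genes. From day 6 to day 7 the median was 0.23, and 104 (11.3%) rose at least 2-fold, beside 1.56% of all genes. The median level was thus lower on day 6 than on either of its neighbours, days 5 and 7. At 35 °C, in a separate table, the same genes had a median change of 0.31 from day 3 to day 5, of -0.22 from day 5 to day 6 and of 0.27 from day 6 to day 7, and 211 (22.9%) fell at least 2-fold from day 5 to day 6, beside 3.44% of all genes. The sign of the medians for days 5 to 6 and 6 to 7 at 25 °C was the same under each scaling and filter tried. Whether fruit sampled on days 3 and 6 differed from the rest in another respect was not tested.

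The risen genes mirrored this course. Their median was 8.16 FPKM on day 1, 6.13 FPKM on day 2, 16.6 FPKM on day 3, 11.6 FPKM on day 5, 18.3 FPKM on day 6 and 10.5 FPKM on day 7 at 25 °C. Levels were highest on days 3 and 6. From day 5 to day 6, 56 of the 222 (25.2%) rose at least 2-fold again, and from day 6 to day 7, 86 (38.7%) fell at least 2-fold, beside 3.51% and 3.79% of all genes. By the mean of days 5, 6 and 7, 42 were back within 0.5 of day 2, a share not computed over all genes. At least 2-fold above day 2 were 102, beside 2.11% of all genes. Day 6 carried much of this, for without day 6 in the late mean the 45.9% above day 2 became 26.6%. Against day 1, which the choice did not use, 62 (27.9%) were at least 2-fold higher late and 24 (10.8%) lower, beside 3.59% and 11.3% of all genes. More of the risen genes were thus higher than lower late, but most of them lay within 2-fold of day 1.

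**Figure D3:**
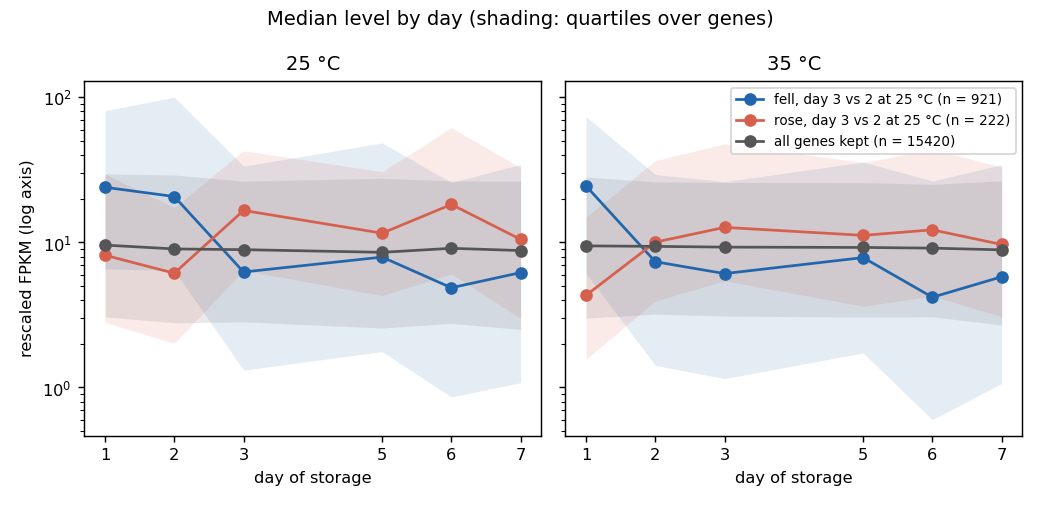
Lines give the median rescaled FPKM by day of storage, and shading the quartiles over genes, for the 921 genes that fell (blue) and the 222 that rose (red) from day 2 to day 3 at 25 °C and for all 15420 genes (grey), at 25 °C (left) and 35 °C (right, log axes). At 25 °C the fallen genes drop to 6.25 FPKM on day 3, against 20.7 FPKM on day 2; at 35 °C their median is already at 7.36 FPKM on day 2.

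At 35 °C many of the same genes had fallen by day 2. From day 1 to day 2 at 35 °C, in columns that took no part in the choice, 506 of the 921 (54.9%) were at least 2-fold lower and 48 (5.21%) at least 2-fold higher, beside 10.9% and 10.4% of all genes. The median change was -1.15, against 0.03 over all genes. Of the 506, 120 had also fallen at least 2-fold from day 1 to day 2 at 25 °C. For these the first fall was not earlier at 35 °C. The median level of the fallen genes at 35 °C was 24.5 FPKM on day 1, 7.36 FPKM on day 2 and 6.10 FPKM on day 3. From day 2 to day 3 at 35 °C only 100 (10.9%) fell by 2-fold or more and 43 (4.67%) rose, beside 3.31% and 2.41% of all genes, with a median of -0.15. The 506 shared genes were 54.9% of the falls at 25 °C, beside 10.9% of all genes. They were 30.2% of the 1674 falls of that first step at 35 °C, beside 5.97% of all genes. With 921 falls at 25 °C against 1674 at 35 °C, the second share is limited by the sizes of the sets. By the late days at 35 °C, 505 (54.8%) were at least 2-fold below day 1, beside 11.5% of all genes, beside the 483 at 25 °C.

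The risen genes showed the reverse. From day 1 to day 2 at 35 °C, 93 of the 222 (41.9%) rose at least 2-fold and 12 (5.41%) fell, beside 10.4% and 10.9% of all genes. From day 2 to day 3 at 35 °C, 38 (17.1%) rose and 9 (4.05%) fell, beside 2.41% and 3.31% of all genes. Their median at 35 °C was 4.32 FPKM on day 1, 10.05 FPKM on day 2 and 12.7 FPKM on day 3. Over all 15420 genes, the difference between day 3 and day 2 at 25 °C had a Pearson correlation of 0.450 (Spearman 0.349) with the difference between day 2 and day 1 at 35 °C, and of 0.188 (Spearman 0.207) with that between day 3 and day 2 at 35 °C. These are correlations across genes, which share columns and are not replicates.

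The fallen genes reached day 2 by different routes. In 562 of the 921 (61.0%), a smaller share than among all genes, day 2 lay within 2-fold of day 1. On day 3, 346 of these (61.6%) were at least 2-fold below day 1, beside 9.58% of all genes. The rest of the 562 were within 2-fold of day 1 on day 3. Another 221 (24.0%) had first been at least 2-fold higher on day 2 than on day 1, beside 4.52% of all genes, and 138 (15.0%) were already at least 2-fold lower, beside 6.17% of all genes. This division uses day 2, which also chose the genes, and is a description.

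The 221 genes with a day 2 peak had a median of 37.6 FPKM on day 1, 107 FPKM on day 2, 30.8 FPKM on day 3, 49.0 FPKM on day 5, 24.3 FPKM on day 6 and 29.2 FPKM on day 7. They came back to about their starting level, with a median change of -0.24 from day 1 to the late days. Late, 25 of them (11.3%) were at least 2-fold below day 1 and 17 (7.69%) above it, beside 11.3% and 3.59% of all genes. These genes were chosen for a day 1 value at least 2-fold below day 2, which favours a low day 1, so this is a description. The step from day 5 to day 6 took 106 of them (47.96%) down at least 2-fold again, beside 5.24% of all genes. At 35 °C their median was 32.8 FPKM on day 1 and 21.2 FPKM on day 2, and 27 (12.2%) rose at least 2-fold in that step while 56 (25.3%) fell, beside 10.4% and 10.9% of all genes, so the group showed no median peak on day 2 at 35 °C.

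The 562 genes with day 2 within 2-fold of day 1 had a median of 18.6 FPKM on day 1, 18.2 FPKM on day 2 and 5.41 FPKM on day 3. Their median stood at 5.71 FPKM on day 7. Late values were at least 2-fold below day 1 in 321 (57.1%), beside 11.3% of all genes. At 35 °C, 330 (58.7%) fell from day 1 to day 2, beside 10.9% of all genes. The 138 genes already on their way down had a median of 39.5 FPKM on day 1, 10.8 FPKM on day 2 and 2.08 FPKM on day 3. In 137 of them (99.3%) the late mean was at least 2-fold below day 1, beside 11.3% of all genes, with a median change of -3.26. These genes were chosen for a day 1 value at least 2-fold above day 2, which favours this result, so it is a description. At 35 °C, 120 (87.0%) fell at least 2-fold from day 1 to day 2, beside 10.9% of all genes.

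**Figure D4:**
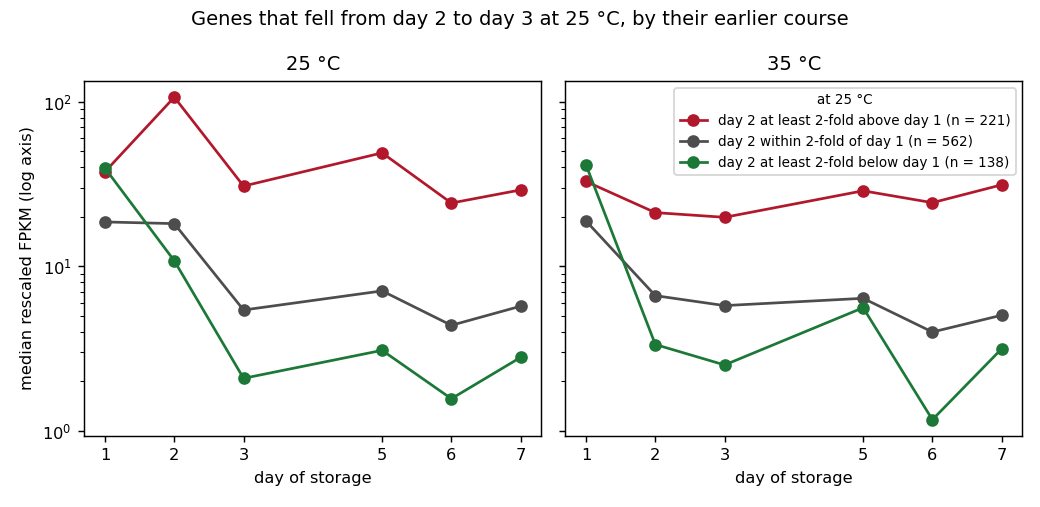
Lines give the median rescaled FPKM (log axes) by day of storage at 25 °C (left) and 35 °C (right) for the genes that fell from day 2 to day 3 at 25 °C, divided by how day 2 compared with day 1 at 25 °C. The 221 genes with a day 2 peak (red) reach 107 FPKM on day 2 at 25 °C and return to 30.8 FPKM on day 3. The 562 with day 2 within 2-fold of day 1 (grey) drop to 5.41 FPKM on day 3. The 138 already lower (green) reach 2.08 FPKM on day 3.

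Among the risen genes, 57 of the 222 (25.7%) had first fallen at least 2-fold from day 1 to day 2, beside 6.17% of all genes. Their medians were 37.2 FPKM on day 1, 6.41 FPKM on day 2 and 22.2 FPKM on day 3, so their rise was a partial return. In a further 147 (66.2%), a smaller share than among all genes, day 2 lay within 2-fold of day 1. Their medians were 6.61 FPKM on day 1, 5.70 FPKM on day 2 and 14.8 FPKM on day 3. On day 3, 66 of them (44.9%) were at least 2-fold above day 1, beside 3.55% of all genes. The rest were within 2-fold of it. Only 18 (8.11%) had been rising already, beside 4.52% of all genes, at 1.77, 10.4 and 33.2 FPKM on these days. This division too shares day 2 with the choice, which favours genes low on day 2, and is a description.

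Many of the fallen genes carried numbers close to one another. Identifiers were called numbered neighbours when they share the part of the name before the number (1G to 8G, or I) and their numbers differ by at most 300. No genome positions were used. Of the 921 fallen genes, 313 (34.0%) had another fallen gene as a numbered neighbour, and 16.9% of the other 14499 genes had one. Runs of 3 or more fallen neighbours numbered 32 and held 129 genes. The longest run had 17 members and the next 6. Identifiers with values identical to another, 43 among the fallen genes, were each counted here. Falls were spread over the name groups 1G to 8G, from 4.93% of genes in 2G to 6.58% in 4G, and the small group I held 4 among 22 genes.

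The run of 17, named 1G and chosen for its length once the values had been seen, holds 4 members that are identical in every column and so count as 1 measurement, which leaves 14 values. Identical values can arise when copies share reads, and levels of single members are uncertain. The span of its numbers holds 19 of the genes kept, and the other 2 did not change 2-fold. Its members changed by between -9.39 and -1.18 on the log2 scale from day 2 to day 3, with a median of -2.77. With identical values counted once, the run held 1.84% of the summed FPKM on day 1 at 25 °C and 1.59% on day 2. The share was 0.203% on day 3 and 0.392% on day 5, then 0.0731% on day 6 and 0.436% on day 7. Counted 4 times, as listed, the shares were 0.734% on day 3, against 4.57% on day 2. The median of the 14 values was 128 FPKM on day 1, 123 FPKM on day 2, 6.09 FPKM on day 3, 23.4 FPKM on day 5, 2.51 FPKM on day 6 and 13.6 FPKM on day 7. At 35 °C their share was 1.73% on day 1, 0.285% on day 2 and 0.0986% on day 3. From day 1 to day 2 at 35 °C, 14 of 14 fell at least 2-fold, beside 10.9% of all genes and 54.9% of the 921 fallen genes. In 10 of the 14 the level fell at least 2-fold again from day 5 to day 6 at 25 °C, beside 5.24% of all genes, and in 10 it rose from day 6 to day 7, beside 1.56% of all genes.

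The largest fall was that of Prupe.1G127200, a member of this run. At 25 °C it was listed at 946 FPKM on day 1, 3203 FPKM on day 2, 3.76 FPKM on day 3, 347 FPKM on day 5, 2.12 FPKM on day 6 and 1703 FPKM on day 7. At 35 °C the values were 3039, 0.624, 1.44, 89.7, 0.459 and 3.04 FPKM on the same days. The difference between day 3 and day 2 was -9.39 on the log2 scale. The swings rest on the first of its 2 rows, which is listed at exactly 0 for days 3 and 6 in the 25 °C table and for days 2, 3, 6 and 7 in the other, and an exact 0 can be a failed estimate. That row was at 0 FPKM on day 3, against 3140 FPKM on day 2. The second row was at 121 FPKM on day 1, 62.5 FPKM on day 2, 3.76 FPKM on day 3, 15.7 FPKM on day 5, 2.12 FPKM on day 6 and 8.17 FPKM on day 7. By the second row alone the difference was -3.74.

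Prupe.6G041500, with a single row, had the next largest fall. It stood at 12.2 FPKM on day 1, 84.0 FPKM on day 2, 0.474 FPKM on day 3, 0.493 FPKM on day 5, 0.211 FPKM on day 6 and 0.526 FPKM on day 7 at 25 °C. From day 3 on it stayed below 1 FPKM, after a day 2 peak. The difference between day 3 and day 2 was -5.85 on the log2 scale. At 35 °C it was listed at 36.8, 1.86, 0.331, 5.68, 0.0854 and 0.424 FPKM on days 1, 2, 3, 5, 6 and 7, so its loss came between day 1 and day 2, with a brief higher value on day 5.

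The largest rise, that of Prupe.I006000, rests on a row at 0. At 25 °C the gene was listed at 49.8 FPKM on day 1, 0.198 FPKM on day 2, 86.6 FPKM on day 3, 0.155 FPKM on day 5, 0.0950 FPKM on day 6 and 0 on day 7. At 35 °C it was above 0.3 FPKM on day 3 alone, at 14.7 FPKM. The difference between day 3 and day 2 at 25 °C was 6.19 on the log2 scale. One of its 2 rows is at 0 on day 2 and at 86.4 FPKM on day 3, and the other stays under 0.3 FPKM throughout, and without the row at 0 the gene does not pass the filter.

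Prupe.8G125100 had the next largest rise, with a difference of 2.37 on the log2 scale. It was listed at 105 FPKM on day 1, 3.70 FPKM on day 2, 23.2 FPKM on day 3, 38.6 FPKM on day 5, 94.3 FPKM on day 6 and 12.5 FPKM on day 7 at 25 °C. Day 2 was the low point, and the rise was a return towards the day 1 level until day 6. At 35 °C the values were 0.398, 5.77, 43.1, 11.0, 18.9 and 65.2 FPKM on these days. The gene has 3 rows, and leaving out the one listed at 0 on day 2 gives a difference of 1.88.

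**Figure D5:**
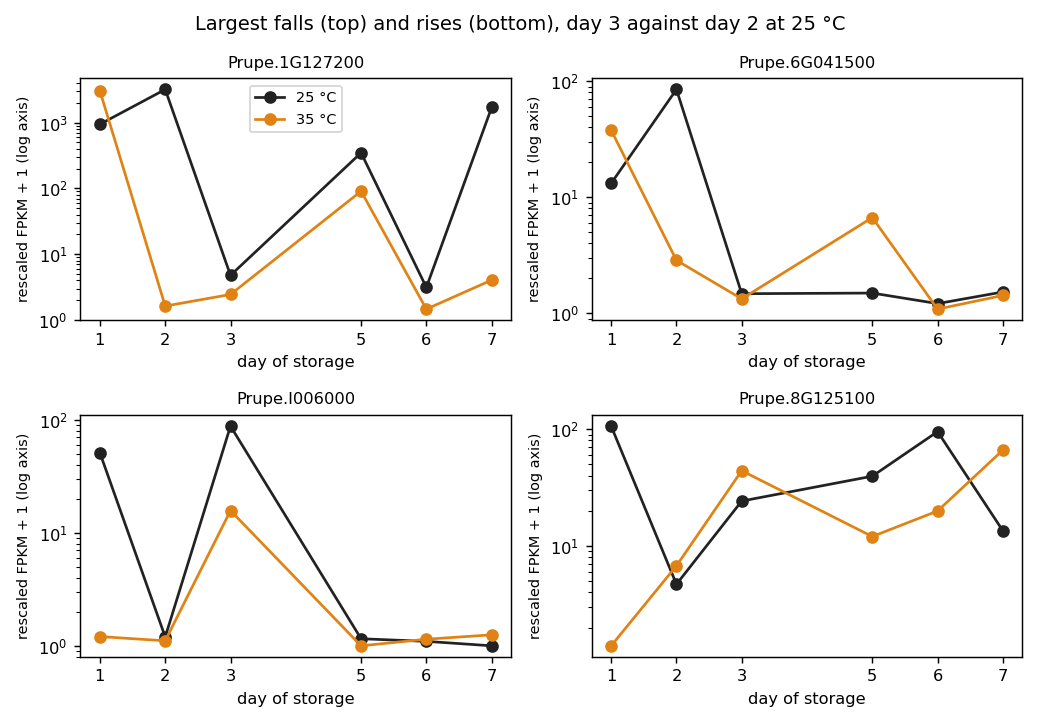
Rescaled FPKM + 1 (log axes) is plotted by day of storage at 25 °C (black) and 35 °C (orange) for the 2 genes with the largest fall (top) and the 2 with the largest rise (bottom) from day 2 to day 3 at 25 °C. Prupe.6G041500 stays under 1 FPKM from day 3 on at 25 °C, while Prupe.1G127200 and Prupe.I006000 swing between high and low days, and a row of each is listed at 0 on some of them.

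Few of the members have such a row. Of the 921 fallen genes, 7 have a row at 0 on day 3 that held 5 FPKM or more on day 2, and of the 222 risen genes 4 have the reverse. Leaving out every row at 0 on either day kept 870 of the falls and 205 of the rises, and 17 of the 17 members of the run.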

How the data were processed

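RNA of peach flesh was depleted of ribosomal RNA and sequenced from directional libraries on an Illumina instrument, per the labels' protocols. The authors deposited FPKM values in 2 tables, one per temperature, with 6 columns each and no replicate number, per the file headers. The genome build and the annotation were not given in the sources used here, nor was how the 2 libraries of a group were combined or scaled. The submitters' processing notes name Cufflinks 2.1.1, TopHat2 2.0.10, Bowtie2 2.1.0, FastQC 0.10.1 and SAMtools 0.1.18, without their roles. Read depth is unknown, and read numbers were not recovered from low values.

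FPKM of the 29300 rows were summed over 26873 identifiers. The 12 columns were divided by median-of-ratios factors (0.922 to 1.06) from the 12194 identifiers with more than 1 FPKM throughout. Identifiers with at least 1 FPKM in at least 2 columns were kept, and log2(FPKM + 1) was compared between days, with 2-fold as the threshold and no test, in Python 3.11.15 with pandas 2.3.3. The counting was tested on simulated data with planted changes well past 2-fold and less spread than the real data. Such a test checks the code and cannot judge calls near 2-fold. Percentages of all genes beside a count of members give the background in the same comparison. Of the 15420 genes, 600 have values identical to another identifier, among them 43 fallen and 9 risen genes. The 2 largest falls and 2 largest rises with at least 5 FPKM on the higher day and above 0 on the lower are named. The lists of gene families rest on product descriptions and matched 0 identifiers. The members, the comparisons and the lists were chosen with earlier results of these data known. Alternatives were another pseudocount, filters, scalings, treatments of repeated, identical or zero rows, and late days left out.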

Additional observations from a re-analysis of the deposited data

How the results depend on the processing

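No paired analysis was possible because no column name shows a single library, and no replicate could be left out. Leaving out rows at 0 and single late days was chosen after the data were seen. The 921 falls ranged from 632 to 1370, and falls outnumbered rises in each alternative. The 222 rises became 545 with a pseudocount of 0.1, 418 with FPKM as deposited (median of all genes 0.15) and 343 with rows kept apart. With a pseudocount of 0.1, 19.6% of fallen genes fell and 9.56% rose from day 2 to day 3 at 35 °C, 8.18% rose from day 1 to day 2 at 35 °C, 4.01% were higher late than on day 1 at 25 °C, and 8.44% of risen genes fell from day 2 to day 3 at 35 °C. With rows kept apart, 8.36% of fallen genes rose from day 2 to day 3 at 35 °C and 9.91% of risen genes fell from day 1 to day 2 there. Without day 6 among the late days, 17.6% of risen genes were lower late than on day 1 and 26.6% stayed 2-fold above day 2. The causes were not tested. With the other pseudocount, with rows kept apart or without day 6, these shares were not computed over all genes. Whether the excess over all genes changed is therefore unknown. The share of fallen genes that fell from day 1 to day 2 at 35 °C stayed between 52.1% and 59.7%, and the share lower late than on day 1 at 25 °C between 46.8% and 59.6%. The named genes kept their direction wherever they were computed. Prupe.1G127200 ranged from -11.6 to -3.74 on the log2 scale. Prupe.I006000 had no value without rows at 0. With read depth unknown, its limits cannot be stated.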
